A study of Arabidopsis thaliana with 9 samples.

Results

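The genes described here are 4 cold-regulated genes of Arabidopsis thaliana, COR15B (AT2G42530), COR47 (AT1G20440), KIN1 (AT5G15960) and KIN2 (AT5G15970). They were chosen as named members of the COR and KIN group, with earlier results of these data known. A probe set counted only if the array annotation gave it 1 gene. All 4 genes met that condition, with 1 probe set each, among 16550 genes with such a probe set and 28501 probe sets in all. Transcript levels were measured on 9 Affymetrix arrays, with 3 arrays each for seedlings carrying spt16-1, seedlings carrying ssrp1-2 and Col-0 wild type. Both mutants are in the Col-0 ecotype, and the labels name neither a treatment nor cold exposure. Each array carried RNA from the pooled aerial parts of several plants, 10 days old, grown on 0.5 MS plates under light labelled as 100 µmol. The labels call the 3 arrays of a genotype biological replicates but give no plate or sowing for the pools, so the p-values reflect how far these pools differed. They also do not say whether either allele abolishes its protein. SPT16 and SSRP1 are the partners in FACT, a complex that moves histones out of the way of RNA polymerase II and back. The design compares seedlings in which 1 or the other partner is mutated.

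COR and KIN genes encode small, hydrophilic proteins that accumulate when plants cold-acclimate. In the cold, CBF transcription factors bind a short element in the promoters of such genes, and abscisic acid, a hormone of water stress, acts on many of them through separate bZIP factors. The proteins are known for protecting membranes and other proteins during freezing and dehydration. COR15B is a chloroplast protein that stabilises membranes, COR47 is a dehydrin, and KIN1 and KIN2 (also called COR6.6) are close relatives encoded side by side on chromosome 5.

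Array medians lay between 4.95 and 4.98 on the log2 scale, and correlations over probe sets between arrays of the same genotype were 0.992 to 0.994. Neither SPT16 nor SSRP1 had a probe set with 1 annotated gene, so their own levels, which would check the genotype labels, were not analysed here. Among the tissue markers, the green-tissue gene RCA, which encodes Rubisco activase, averaged 12.27 in spt16-1, 12.29 in ssrp1-2 and 12.37 in wild type. PYK10, a beta-glucosidase gene typical of roots, averaged 11.31 in spt16-1, 10.84 in ssrp1-2 and 11.21 in wild type. The measured marker genes numbered 6, for green tissue (1 of 7 listed), roots (3 of 8) and guard cells (2 of 6). Of these, 0 passed in any comparison by limma. PYK10 and the guard cell gene GC1 met an unadjusted p under 0.05 in at least 1 comparison. Between spt16-1 and ssrp1-2, GC1 (unadjusted p = 0.0456 by limma) stood at place 3206 of 28501 probe sets ranked by p. At least 3206 probe sets therefore met that cut there, and the 2 markers are given as a description. Of 11 seed maturation markers 0 were measured. Differences from wild type of the root markers ran between -0.10 and 0.09 in spt16-1 and between -0.38 and 0.34 in ssrp1-2. The 0.34 came from PEP, which averaged 1.73 in wild type and 2.07 in ssrp1-2, at the low end of the signal range. EXP7, another root marker, was also low, at 3.44 in wild type. Those of the guard cell markers ran between -0.12 and -0.02 in spt16-1 and between -0.19 and 0.23 in ssrp1-2. In RNA from whole aerial parts, more cells of a type and more RNA per cell cannot be told apart.

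COR15B, KIN2 and COR47 were higher in spt16-1 than in wild type, by 2.06-fold, 2.05-fold and 1.59-fold. KIN1 differed in the same direction, at a signal near the low end of the range, and did not pass. In ssrp1-2 all 4 genes also averaged above wild type, by 1.18-fold to 1.35-fold, and 0 of them passed the test over all probe sets. COR15B and KIN2 were higher in spt16-1 than in ssrp1-2 as well. Those calls were lost in 6 (COR15B) and 5 (KIN2) of 9 fits with 1 array left out.

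COR15B had log2 values of 7.21, 7.66 and 7.44 in spt16-1, of 6.76, 6.59 and 6.70 in ssrp1-2, and of 6.46, 6.32 and 6.41 in wild type. All 3 spt16-1 arrays lay above all ssrp1-2 arrays, and these in turn lay above all wild-type arrays. The mean was 7.44 ± 0.22 in spt16-1, 6.69 ± 0.08 in ssrp1-2 and 6.40 ± 0.07 in wild type (SD, n = 3 each). The difference of spt16-1 from wild type was 1.04 on the log2 scale, with a standard error of 0.11, a 95% interval of 0.78 to 1.30 and an adjusted p of 0.00217 (limma, Benjamini-Hochberg over 28501 probe sets). Even its lower bound corresponds to a 1.72-fold higher level. Between ssrp1-2 and wild type the difference was 0.29 (0.03 to 0.54, adjusted p = 0.283 by limma). The groups there did not overlap, but the gap between the lowest ssrp1-2 and the highest wild-type array was 0.13, and the difference did not pass over all probe sets.

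COR47, the dehydrin gene, had log2 values of 9.51, 9.62 and 9.76 in spt16-1, of 9.33, 9.29 and 9.56 in ssrp1-2, and of 9.07, 8.90 and 8.92 in wild type. Wild-type arrays were the lowest throughout, whereas the highest ssrp1-2 array exceeded the lowest spt16-1 array. COR47 averaged 9.63 ± 0.12 in spt16-1, 9.39 ± 0.15 in ssrp1-2 and 8.96 ± 0.10 in wild type (SD, n = 3 each). It rose in spt16-1 by 0.67 (95% interval 0.44 to 0.90, adjusted p = 0.0121 by limma). That call was lost without wild-type replicate 2 (adjusted p = 0.0555 by limma) or 3 (0.0541), and without spt16-1 replicate 2 (0.0533) or 3 (0.0501). In those fits the difference stayed between 0.60 and 0.67. The ssrp1-2 difference of 0.43 (0.20 to 0.66) had an adjusted p of 0.0671, and it passed when the lowest 25% of probe sets were left out (adjusted p = 0.0438 by limma) or the prior spread followed the mean level (0.0167). Of the 4 genes, COR47 had the largest difference from wild type in ssrp1-2 and the smallest of the 3 that passed in spt16-1.

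KIN2 had log2 values of 9.01, 9.06 and 9.09 in spt16-1, of 8.37, 8.26 and 8.14 in ssrp1-2, and of 8.25, 7.83 and 7.99 in wild type. The spt16-1 arrays were tightly grouped above all others, and the ssrp1-2 and wild-type arrays overlapped. KIN2 averaged 9.06 ± 0.04 in spt16-1, 8.26 ± 0.11 in ssrp1-2 and 8.02 ± 0.21 in wild type (SD, n = 3 each). The rise in spt16-1 was 1.03 (95% interval 0.78 to 1.28, adjusted p = 0.00202 by limma). The ssrp1-2 difference was 0.24 (-0.01 to 0.49, adjusted p = 0.377 by limma), an interval that includes 0 and reaches a 1.40-fold higher level.

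KIN1, the neighbouring copy, had log2 values of 3.33, 3.77 and 3.77 in spt16-1, of 3.40, 3.40 and 3.74 in ssrp1-2, and of 3.17, 3.40 and 2.85 in wild type. The genotypes overlapped or touched, and 1 array, wild-type replicate 3, lay below 3.13, the mean under which the lowest 25% of all probe sets fell. KIN1 averaged 3.62 ± 0.25 in spt16-1, 3.51 ± 0.19 in ssrp1-2 and 3.14 ± 0.28 in wild type (SD, n = 3 each). Its difference was 0.48 in spt16-1 (95% interval 0.09 to 0.88, adjusted p = 0.281 by limma) and 0.37 in ssrp1-2 (-0.02 to 0.77, adjusted p = 0.380). A signal this low was not shown to be above background, so neither a change nor its absence was shown for KIN1. Probes that also match KIN2 would make the separate values of this pair uncertain, and the probe sequences were not analysed here.

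**Figure D1:**
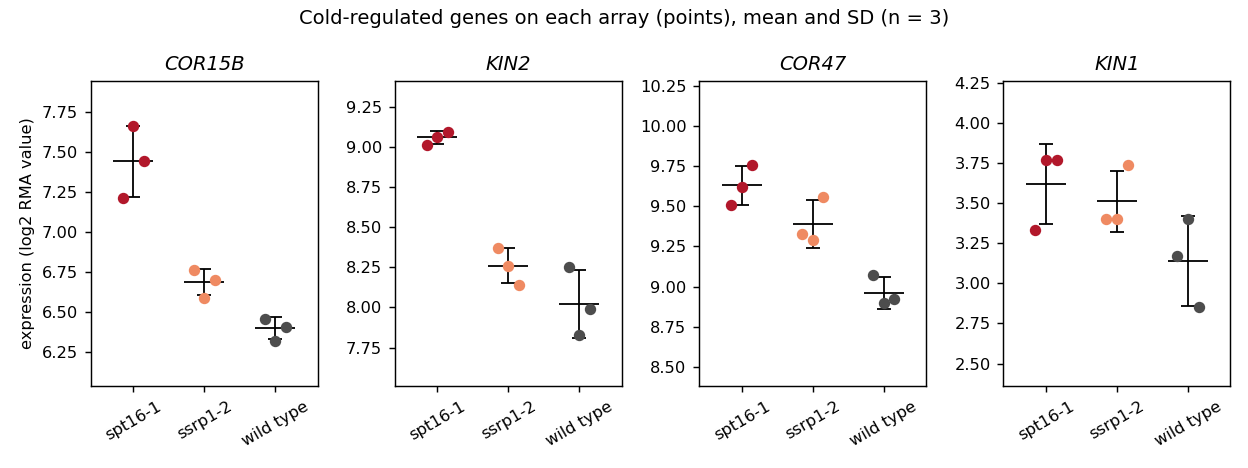
Log2 expression value (y axis, RMA) of each cold-regulated gene by genotype (x axis), with 1 point per array and bars for the mean and SD of 3 arrays. Every panel spans the same log2 range; COR15B and KIN2 sit clearly higher in spt16-1, COR47 steps down from spt16-1 (9.63) over ssrp1-2 (9.39) to wild type (8.96), and the KIN1 arrays overlap.

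The 3 calls among 4 genes in spt16-1 stand beside 1.21% of all probe sets called higher in that comparison. The groups did not overlap for 3 of the 4 genes, against 8.53% of all probe sets with every spt16-1 array above every wild-type array. The median difference of the 4 genes was 0.85, and that of all probe sets was -0.01. Ranked by the difference from wild type, COR15B and KIN2 stood at places 64 and 65 from the top of 28501 probe sets, COR47 at 251 and KIN1 at 551. The 4 genes were chosen with earlier results of these data known. These shares and places therefore describe the 4 and do not test COR and KIN genes as a group. COR15A, which is outside the 4, differed by 0.19 in spt16-1 and did not pass.

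For ssrp1-2 the call rate for higher probe sets was 1.74%, and 0 of the 4 genes passed by limma. At an unadjusted p under 0.05, 2 of the 4 (COR15B and COR47) would have passed. That cut is much looser than the adjusted one behind the 1.74%. Ranked by p, COR47 stood at place 924, COR15B at place 3159 and KIN2 (unadjusted p = 0.0606 by limma) at place 4581 of 28501 probe sets. At least 3159 and fewer than 4581 of all probe sets therefore met the unadjusted cut. The 2 genes that met it are not read as a result about the 4. Arrays of COR15B and COR47 did not overlap with wild type, against 9.37% of all probe sets with every ssrp1-2 array above every wild-type array. The median difference of the 4 genes was 0.33, and COR47, KIN1, COR15B and KIN2 stood at places 978, 1347, 2277 and 3131 from the top. Both mutants were compared with the same 3 wild-type arrays, so the 2 sets of differences are not independent of each other.

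**Figure D2:**
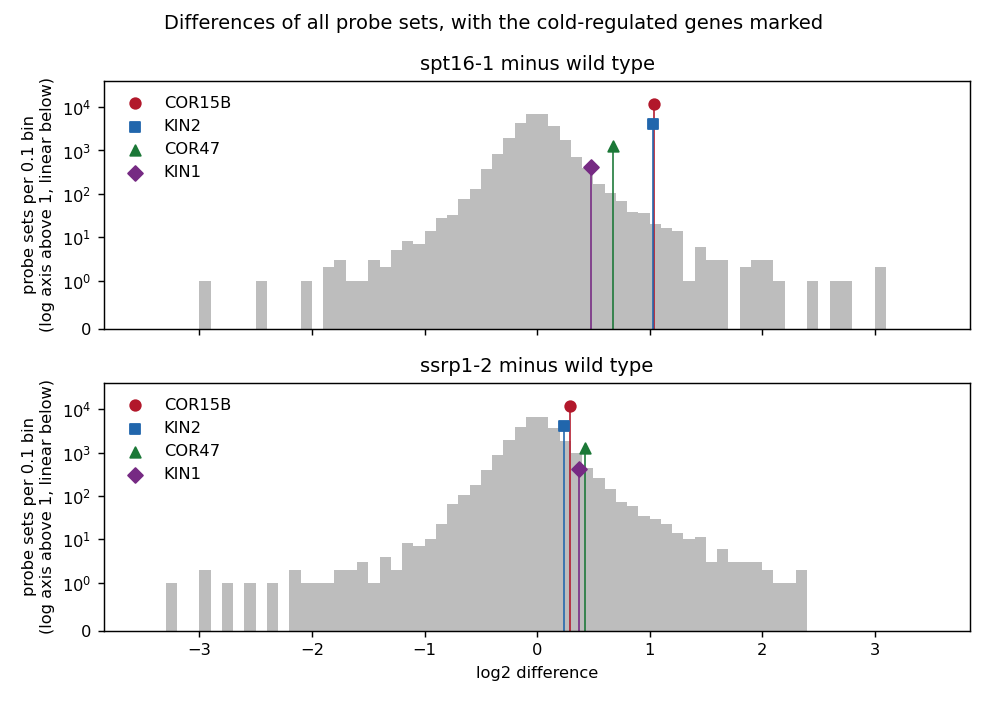
Number of probe sets (y axis, log axis above 1) in bins of the log2 difference from wild type (x axis), for spt16-1 above and ssrp1-2 below, with vertical lines at the 4 cold-regulated genes. In spt16-1 COR15B and KIN2 lie at 1.04 and 1.03 in the right tail, and in ssrp1-2 the 4 lines fall between 0.24 and 0.43.

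Set directly against each other, spt16-1 exceeded ssrp1-2 in COR15B and KIN2. The difference was 0.75 for COR15B (95% interval 0.50 to 1.01, adjusted p = 0.0238 by limma) and 0.80 for KIN2 (0.55 to 1.05, adjusted p = 0.0169). These are 1.68-fold and 1.74-fold higher levels in spt16-1. For COR47 the difference was 0.24 (0.01 to 0.47, adjusted p = 0.399 by limma) and for KIN1 it was 0.11 (-0.29 to 0.50, adjusted p = 0.856). Thus 2 of 4 genes passed, beside 0.316% of all probe sets called higher in spt16-1 than in ssrp1-2, and the arrays of the same 2 genes did not overlap, against 7.16% of all probe sets with every spt16-1 array above every ssrp1-2 array. The COR15B call was lost without any 1 of the 3 ssrp1-2 arrays, without spt16-1 replicate 2 or 3 and without wild-type replicate 3. In the fits that lost it, adjusted p was up to 0.0877 by limma and the difference was 0.64 to 0.79. The COR15B call was also lost with the replicate number as a block (adjusted p = 0.0849 by limma), in the fit of the 2 genotypes alone (0.102) and in the unmoderated test (0.0835). The KIN2 call was lost without any 1 of the 3 spt16-1 arrays and without ssrp1-2 replicate 2 or 3. In the fits that lost it, adjusted p was up to 0.0805 by limma and the difference was 0.74 to 0.82. The unmoderated test lost the KIN2 call too (0.0694).

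The genotype means of COR15B, COR47 and KIN2 fell in the order spt16-1, ssrp1-2, wild type, an order that 15.2% of all 28501 probe sets had. The means of KIN1 fell in it too, but its signal was too low for its place to be read. Not every step passed the test over all probe sets. For COR15B and KIN2 the step between spt16-1 and ssrp1-2 passed, with the losses given above, and the step between ssrp1-2 and wild type did not. For COR47 neither step passed and only the whole distance did, and for KIN1 no step passed.

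**Figure D3:**
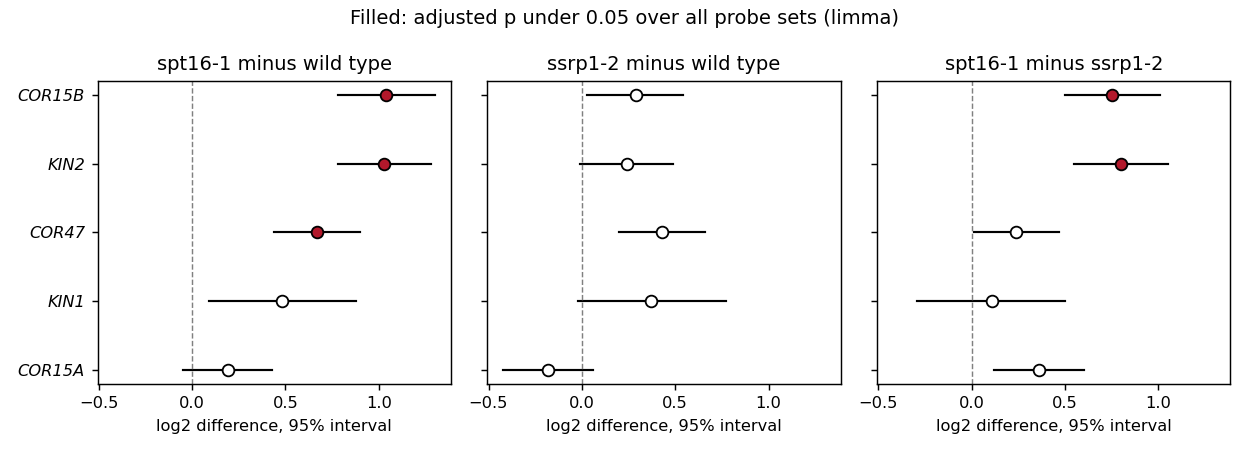
Log2 difference (x axis) with its 95% interval for the 4 cold-regulated genes and COR15A (rows) in the 3 comparisons (panels); filled points passed at an adjusted p under 0.05 over all probe sets. COR15B and KIN2 are filled against both wild type and ssrp1-2, and COR47 (0.67) against wild type in spt16-1, while the COR15A intervals against wild type include 0.

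COR15B lies beside COR15A (AT2G42540), its close relative, which encodes another cold-induced chloroplast protein. COR15A had log2 values of 11.08, 10.91 and 10.77 in spt16-1, of 10.49, 10.73 and 10.45 in ssrp1-2, and of 10.66, 10.74 and 10.79 in wild type. The spt16-1 and wild-type arrays overlapped, and so did the ssrp1-2 and wild-type arrays, while every spt16-1 array lay above every ssrp1-2 array. The difference from wild type was 0.19 in spt16-1 (95% interval -0.05 to 0.43, adjusted p = 0.527 by limma) and -0.18 in ssrp1-2 (-0.42 to 0.06, adjusted p = 0.500), so the spt16-1 interval reaches at most a 1.34-fold higher level. Between spt16-1 and ssrp1-2 the COR15A difference was 0.36 (0.12 to 0.60, adjusted p = 0.207 by limma), in the same direction as those of COR15B and KIN2, and it did not pass. Unequal change of the pair was examined as the log2 ratio of COR15B to COR15A on each array, with the wild-type mean set to 0, a test chosen after the values were seen. That ratio was 0.46, 1.08 and 1.01 in spt16-1 and 0.60, 0.20 and 0.59 in ssrp1-2, against 0.14, -0.09 and -0.05 in wild type. It was higher than every wild-type value on all arrays of both mutants, by 0.85 on average in spt16-1 and 0.46 in ssrp1-2 (exact permutation p = 0.1 each, two-sided, the smallest that 3 arrays against 3 can give, and 0.15 after Benjamini-Hochberg adjustment over 6 tests). Between the mutants the ratio differed by 0.39 (exact permutation p = 0.3, adjusted 0.36). Probes that match both genes would make the separate COR15B and COR15A values, and this ratio, uncertain.

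For the KIN pair the same ratio, KIN2 over KIN1, was 0.80, 0.41 and 0.45 in spt16-1 and 0.09, -0.03 and -0.47 in ssrp1-2, against 0.20, -0.45 and 0.26 in wild type. It was higher in spt16-1 than in wild type by 0.55 (exact permutation p = 0.1, adjusted 0.15) and than in ssrp1-2 by 0.69 (exact permutation p = 0.1, adjusted 0.15), and it differed by -0.14 between ssrp1-2 and wild type (exact permutation p = 0.5). KIN1 was near the low end of the signal range, so this ratio was not read further.

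Of 5 measured neighbours of the 4 loci outside the group, COR15A included, 0 were called higher in either mutant by limma. At an unadjusted p under 0.05 only AT5G15950 would have passed in either mutant against wild type, and it was lower. AT2G42520, before COR15B, differed from wild type by 0.27 in spt16-1 and 0.31 in ssrp1-2, with adjusted p of 0.553 and 0.414. AT1G20430, before COR47, had -0.22 and -0.18, and AT5G15980, after KIN2, had 0.12 and 0.09. AT5G15950, before KIN1, had log2 values of 4.75, 4.56 and 4.86 in spt16-1, of 4.89, 4.72 and 4.87 in ssrp1-2, and of 5.66, 5.26 and 5.28 in wild type. It fell by 0.67 in spt16-1 (difference -0.67, adjusted p = 0.0309 by limma), a call that held in 1 of 9 fits with an array left out, that without ssrp1-2 replicate 2 (adjusted p up to 0.114 in the others). The limma fit of the 2 genotypes alone (adjusted p = 0.105) and the unmoderated test (0.0979) did not call it either. In ssrp1-2 the difference was -0.57 (adjusted p = 0.0521 by limma), with arrays that did not overlap with wild type, and it passed with a variance trend (0.0355), quantile scaling (0.0406), median centring (0.0402) and the filter on the lowest 25% (0.0349). The dehydrin gene ERD10, after COR47, had no probe set with 1 annotated gene and was not analysed here.

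Few other genes of the pathway could be read. Of 33 further cold- and abscisic-acid-induced genes listed, 2 were measured, COR15A and the dehydrin gene LTI30. Of these, 0 passed in any comparison by limma, and 2 met an unadjusted p under 0.05 in at least 1 comparison. In spt16-1 against wild type, LTI30 (unadjusted p = 0.0401 by limma) stood at place 3139 of 28501 probe sets ranked by p. At least 3139 probe sets therefore met that cut there, and the 2 genes are given as a description. LTI30 averaged 3.26 in spt16-1, 2.95 in ssrp1-2 and 2.97 in wild type, which is at the low end of the signal range. Of 23 genes for the synthesis, breakdown and signalling of abscisic acid 0 were measured, and of 19 regulators of the cold response only STZ was, so the CBF genes were not analysed here. STZ, a zinc-finger repressor that responds to cold and to several other stresses, had log2 values of 7.11, 7.35 and 6.95 in spt16-1, of 7.88, 8.01 and 8.05 in ssrp1-2, and of 5.74, 6.02 and 6.00 in wild type. Its order differed from that of the cold-regulated genes, with ssrp1-2 highest. STZ rose by 1.22 in spt16-1 (adjusted p = 0.00134 by limma) and 2.06 in ssrp1-2 (1.04e-04). Its difference between spt16-1 and ssrp1-2 was -0.84 (adjusted p = 0.0178 by limma), which did not pass when spt16-1 replicate 1 or 3, or ssrp1-2 replicate 2 or 3, was removed (the highest adjusted p was 0.0821).

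Among 11 listed dehydrins and KIN-like LEA genes, 7 were measured, and 0 passed in any comparison by limma. LTI30 and HIRD11 met an unadjusted p under 0.05 in at least 1 comparison. At least 3139 of all probe sets met that cut in spt16-1 against wild type, so the 2 genes are given as a description. The median difference of the 7 genes was 0.12 in spt16-1 and 0.03 in ssrp1-2. HIRD11 (AT1G54410), a small dehydrin with a high signal, had the largest difference in spt16-1, 0.32 (95% interval 0.15 to 0.49, adjusted p = 0.0815 by limma), against 0.16 in ssrp1-2. The KIN-like genes of the list were singled out after their values were seen. AT5G53820 had 0.16 in spt16-1 and 0.26 in ssrp1-2, and AT5G38760 had -0.06 and -0.16. Of the 10 listed clock genes only GI was measured. GI, a clock gene with known roles in flowering and in freezing tolerance, averaged 8.98 ± 0.07 in spt16-1, 8.58 ± 0.04 in ssrp1-2 and 7.77 ± 0.05 in wild type (SD, n = 3 each). Its order of genotypes was that of the cold-regulated genes, with differences from wild type of 1.21 in spt16-1 (adjusted p = 8.99e-05 by limma) and 0.81 in ssrp1-2 (4.87e-04). The difference of 0.40 between spt16-1 and ssrp1-2 had an adjusted p of 0.0385 by limma that exceeded the threshold without any 1 of the 9 arrays (up to 0.120).

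**Figure D4:**
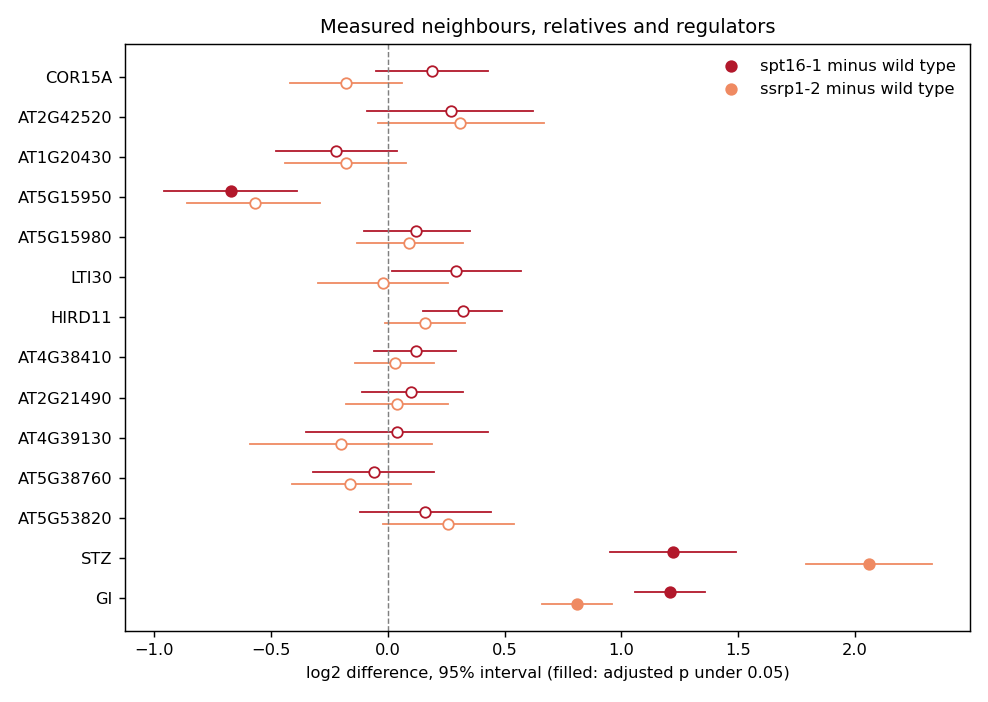
Log2 difference from wild type (x axis) with 95% intervals for spt16-1 and ssrp1-2, for measured genes next to the 4 loci, dehydrin and KIN-like genes, and the regulators STZ and GI (rows); filled points passed at an adjusted p under 0.05. STZ (1.22 and 2.06) and GI (1.21 and 0.81) are filled in both mutants and AT5G15950 (-0.67) in spt16-1, and all other points are open.

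Likeness of pattern was measured as the root mean square difference between genes over the 9 arrays, after subtracting each gene's own mean, among 16721 other probe sets with 1 gene. KIN2 was the closest of all to COR15B (0.130 on the log2 scale), and COR15B was the second closest to KIN2. Ranked by Pearson correlation instead, KIN2 stood at place 4 for COR15B, and COR15B at place 7 for KIN2. The 9 arrays fall into 3 genotypes, so closeness by either measure rests largely on the genotype means. The 2 genes lie on different chromosomes, COR15B on chromosome 2 and KIN2 on chromosome 5. The gene closest to KIN2 was AT1G07050 (0.123), which was also the second closest to COR15B (0.151). AT1G07050 averaged 4.26 in spt16-1, 3.48 in ssrp1-2 and 3.35 in wild type. LCR69, a gene for a small cysteine-rich protein also named PDF2.2, was the third closest to COR15B, at 9.21 in spt16-1, 8.65 in ssrp1-2 and 8.22 in wild type. AT4G21215 was the third closest to KIN2 (0.149).

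COR47 and KIN1 had other closest genes. Those of COR47 were AT2G20250, AT5G39850 and CHL, which encodes a chloroplastic lipocalin, each at 0.0960. CHL differed from wild type by 0.68 in spt16-1 and 0.35 in ssrp1-2. Those of KIN1 were AT1G80970 (0.0956), AT3G60710 (0.114) and AT5G37270 (0.121), which averaged 2.19 to 2.94 in wild type. The difference between KIN1 and its neighbour KIN2 was 0.392, which put KIN2 at place 13419 from the KIN1 side and KIN1 at place 985 from the KIN2 side. The KIN1 signal was not shown to be above background, so nothing was read from these places.

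**Figure D5:**
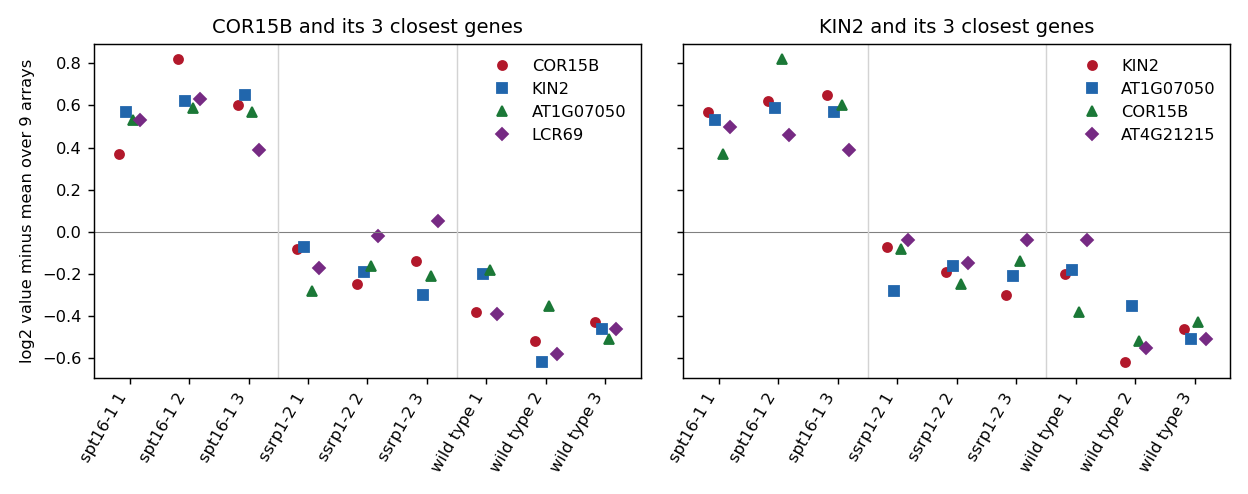
Log2 value minus the gene's own mean over 9 arrays (y axis) on each array (x axis), for COR15B (left) and KIN2 (right) with the 3 genes closest to each. All points of spt16-1 lie above all points of ssrp1-2 and wild type, and COR15B and KIN2 differ by 0.130 in root mean square.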

How the data were processed

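Total RNA (200 ng a sample) from pools of about 100 mg of aerial tissue was labelled with biotin, per the labels' protocols. Per the submitters' processing notes, the authors used RMA in version 1.3 of Affymetrix Expression Console, and the deposited log2 values hold 1 number for each probe set and array. RMA corrects background, equalises the distributions of the arrays and summarises probes, so a shift in total RNA would not be visible and changes of weak signals are compressed. No coordinates are printed, because the genome build of the probe design was not given in the sources. The array annotation gave 1 gene to 16722 of 28501 probe sets and several to 759, and 11020 were unnamed here; 16574 matched RefSeq (TAIR10.1), which served for names and gene order.

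Values were used as deposited. All 9 arrays entered 1 limma fit (limma 3.58.1, R 4.3.3) with lmFit and eBayes (two-sided, 6 residual and 2.76 prior degrees of freedom), with Benjamini-Hochberg adjustment over 28501 probe sets and a threshold of 0.05. The limma fit was tested on simulated arrays, in the comparison of spt16-1 with wild type. Those arrays drew each probe set independently from a normal distribution, and the recovery rates are not given here. That test is therefore not used as support for the calls above. The permutation and likeness steps were not tested in that way. Pairs of neighbouring genes were compared by exact permutation. The number of arrays limits the precision. No filter on low values was applied, and all 4 genes pass a filter on the lowest 25% (mean under 3.13).

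The members and gene lists were chosen with earlier results of these data known. Named genes are the 4 members, listed genes that passed or had the 2 smallest p of their list, neighbours in RefSeq order, and the 3 closest genes of each member. AT5G53820, AT5G38760 and AT4G30650 lie outside this rule and were chosen after their values were seen. Alternatives were a replicate block, a variance trend, an unmoderated test, 2-genotype fits, quantile scaling, median centring, the low filter, array weights and leaving out each array.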

Additional observations from a re-analysis of the deposited data

How the results depend on the processing

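The 4 genes were tested in 3 comparisons under 17 alternatives each, 204 in all. Of these, 183 kept direction and call, 19 lost a call, 2 gained one and 0 reversed. A comparison not called in the reported fit counts as kept where it stayed uncalled. Between spt16-1 and ssrp1-2 the COR15B call held in 8 of 17 alternatives and the KIN2 call in 11. The COR47 call in spt16-1 against wild type held in 13. The spt16-1 calls of COR15B and KIN2 held in all 17, with adjusted p (limma, except in the unmoderated test) up to 0.0211 and 0.0182. Of COR47 in spt16-1 the difference ranged from 0.60 to 0.72 with 1 array left out, and 4 of 9 such fits lost the call; its ssrp1-2 difference of 0.43 passed with a variance trend and with the low filter, which made the members called in ssrp1-2 1 in each. Between spt16-1 and ssrp1-2, the COR15B difference (0.75) lost its call with the replicate block (adjusted p = 0.0849 by limma), the unmoderated test (0.0835) and the fit of 2 genotypes (0.102), and ranged from 0.64 to 0.87 with 1 array left out; the KIN2 difference (0.80) lost it in the unmoderated test (0.0694) and ranged from 0.74 to 0.86. Members called there numbered 1 with the block, 0 unmoderated, 1 with 2 genotypes and 0 to 2 with 1 array left out. The cause was not tested, except that fits with fewer arrays or a block have fewer degrees of freedom.

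Same-numbered arrays did not deviate together over all probe sets (r between -0.135 and 0.0692), so no pairing by replicate number was seen. These correlations would not show a shared batch that acts on few genes. The replicate block gave 380 called probe sets for spt16-1 against wild type (576 without it) and 117 between the mutants (238 without it), and changed no other call of the 4 genes. With a variance trend the counts were 1024 for spt16-1, 1190 for ssrp1-2 (735 in the reported fit) and 497 between them; with 2 genotypes 271, 399 and 80; unmoderated 482 for ssrp1-2 and 123 between them. With 1 array left out they were 293 to 479, 405 to 625 and 91 to 167. By Pearson correlation in place of the root mean square difference, 0 of the 3 closest genes were shared for COR15B and COR47, 1 for KIN2 and 2 for KIN1. The low end of the array signal limits KIN1.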

Other observations

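On 4 of 9 arrays the 4 genes deviated from their genotype means in the same direction, and on the other 5 they did not. Deviations of a gene cancel out over the 3 arrays of a genotype, and other sets of genes were not counted. The count is therefore given as a description. All 4 lay below their genotype mean on spt16-1 replicate 1 (COR15B by -0.23, COR47 by -0.12, KIN1 by -0.29 and KIN2 by -0.04) and on ssrp1-2 replicate 2 (KIN2 there by 0.00 after rounding), and all 4 above it on spt16-1 replicate 3. On ssrp1-2 replicate 3, COR47 (0.17) and KIN1 (0.22) were above their genotype mean while KIN2 (-0.11) was below it. On wild-type replicate 1 all 4 were above the mean, KIN2 most (0.22), and on wild-type replicate 2 KIN1 (0.26) was above and KIN2 (-0.19) below. Medians of these arrays over all probe sets lay between 4.95 and 4.98.

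By Pearson correlation over the 9 arrays, AT4G30650 was the closest gene to COR15B and the third closest to KIN2. The 9 arrays fall into 3 genotypes, so this closeness rests largely on the genotype means, and it is given as a description.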
